A study of Mus musculus with 13 samples.

Results

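The genes described here belong to the transforming growth factor-beta (TGF-beta) and activin family: the ligands Tgfb1, Tgfb2 and Tgfb3, their receptors Tgfbr1 and Tgfbr2, the activin subunits Inhba, Inhbb, Inhbc and Inhbe, and the activin-binding protein follistatin (Fst). They were chosen by symbol, all 10 were found among the 22048 genes of the count table, and all 10 passed the low-count filter that kept 13831 genes for testing. Messenger RNA of whole mouse liver was counted in 6 control livers not depleted of hepatic stellate cells (3 male, 3 female), 4 livers depleted of these cells (1 male, 3 female) and 3 livers not depleted and taken 72 h after partial hepatectomy (2 male, 1 female). Stellate cells wrap the liver sinusoids and store vitamin A, and hepatectomy takes out some of the lobes, which is followed by regrowth. Strain, age, the means of depletion and the handling of the control mice are not given in the sources used here. By its title, the study deals with how neurotrophin-3 from stellate cells acts on hepatocyte proliferation.

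TGF-beta ligands are secreted in latent form, held in the matrix or at the cell surface by binding proteins, and once released they bring together a type II receptor (Tgfbr2) and a type I receptor (Tgfbr1), which phosphorylates SMAD2 and SMAD3. Activins are dimers of inhibin beta subunits that use their own receptors to reach the same SMAD proteins, and follistatin binds activins and blocks them. In the liver TGF-beta is best known for activating stellate cells and, with activin A, for restraining hepatocyte growth, while Inhbc and Inhbe are expressed mainly by hepatocytes.

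Inhbe and Inhbc lie side by side on chromosome 10, 4555 bases apart in the deposited gene models, and are transcribed in the same direction. Their promoters are shown because the levels of these neighbours diverged between livers, as given further on. Each sequence is the 300 bases from 250 before to 50 after the RefSeq start site on the minus strand of GRCm38.p6, at chr10:127351799-127352098 for Inhbe and chr10:127370499-127370798 for Inhbc. Capitals mark the matches, on either strand, to 4 searched motifs: the SMAD box CAGAC, the AP-1 element TGANTCA, the C/EBP-ATF element TGATGNAA (bound by stress-responsive factors such as ATF4 and CHOP) and the TATA box TATAAA.
Inhbe: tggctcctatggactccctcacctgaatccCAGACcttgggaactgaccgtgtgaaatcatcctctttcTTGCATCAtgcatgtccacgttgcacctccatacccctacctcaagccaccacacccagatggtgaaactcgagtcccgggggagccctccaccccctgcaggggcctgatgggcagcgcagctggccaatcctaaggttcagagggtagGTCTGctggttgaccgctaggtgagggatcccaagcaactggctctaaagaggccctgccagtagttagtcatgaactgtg
Inhbc: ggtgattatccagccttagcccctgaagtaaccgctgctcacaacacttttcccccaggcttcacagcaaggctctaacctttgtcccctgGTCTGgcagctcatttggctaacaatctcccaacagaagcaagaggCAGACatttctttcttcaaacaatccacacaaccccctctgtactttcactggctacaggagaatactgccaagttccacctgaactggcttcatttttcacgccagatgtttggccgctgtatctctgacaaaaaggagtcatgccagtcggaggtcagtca
Both windows hold the SMAD box 2 times, a motif found in 49.6% of the 32851 RefSeq promoters of this length. The C/EBP-ATF element occurs once in the Inhbe window, on the strand opposite to transcription, and in 3.97% of all promoters. It was not found in the Inhbc window or in those of the other 6 members that the promoter table holds. A match is a description of the letters, not of a site in use.

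Library totals were 35360991 to 51008737 counts, so that 3 counts, taken as the smallest level to be told from none, corresponded to 0.0588 to 0.0848 CPM (counts scaled to library size). No batch is named in the labels, so a batch and the groups cannot be told apart. All 12 stellate markers fell in depleted livers, with a summed level of 230.5 to 627.9 CPM in controls, 13.8 to 52.2 CPM in depleted livers and 224.1 to 448.2 CPM after hepatectomy. Depleted replicate 4 held the 52.2 CPM, against at most 18.7 CPM in the other depleted livers. Hepatocyte markers summed to 66250 to 136000 CPM in controls, 66490 to 165000 CPM in depleted and 114700 to 170800 CPM in hepatectomised livers. In depleted livers 6 of 9 Kupffer cell, 9 of 9 tested monocyte and neutrophil, 5 of 5 T cell and 3 of 3 tested platelet genes were called higher, while Clec4f, a defining Kupffer marker, had a log2 fold change (log2FC) of -3.00 that did not pass (edgeR adjusted p = 0.0872). Control replicate 6 and hepatectomy replicate 2 stood apart in the opposite way, with Kupffer markers summing to 85.7 and 96.0 CPM, where the other controls had 458.7 to 665.3 CPM and the other hepatectomised livers 377.9 and 893.9 CPM.

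Levels were first compared between members per kilobase of gene model. In control livers the hepatocyte subunits stood highest, Inhbc at 28.3 ± 14.5 (SD, n = 6) and Inhbe at 23.0 ± 12.6 CPM per kilobase. The receptors followed, Tgfbr2 at 6.74 ± 1.79 and Tgfbr1 at 4.84 ± 0.86 CPM per kilobase, and then Tgfb1, the main TGF-beta ligand, at 3.27 ± 1.10. Inhba, Fst and Inhbb lay between 1.00 and 0.34, Tgfb3 at 0.26 and Tgfb2 at 0.11 CPM per kilobase. The ranges of all neighbours in this order overlapped, although the upper gene was above the lower in at least 5 of 6 livers for every neighbouring pair except Inhbb and Tgfb3 (4 of 6). In depleted livers Tgfbr2 (11.2 ± 2.1, SD, n = 4) and Tgfb1 (10.8 ± 2.6 CPM per kilobase) stood close to Inhbc (13.4 ± 5.7), and Inhbc exceeded Tgfbr2 in only 2 of 4 livers. After hepatectomy Inhbc was at 43.8 ± 18.4 CPM per kilobase (SD, n = 3) and above Inhbe in all 3 livers, while Fst, at 3.09 ± 1.67, stood next to Tgfb1 at 3.07 ± 1.56.

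**Figure D1:**
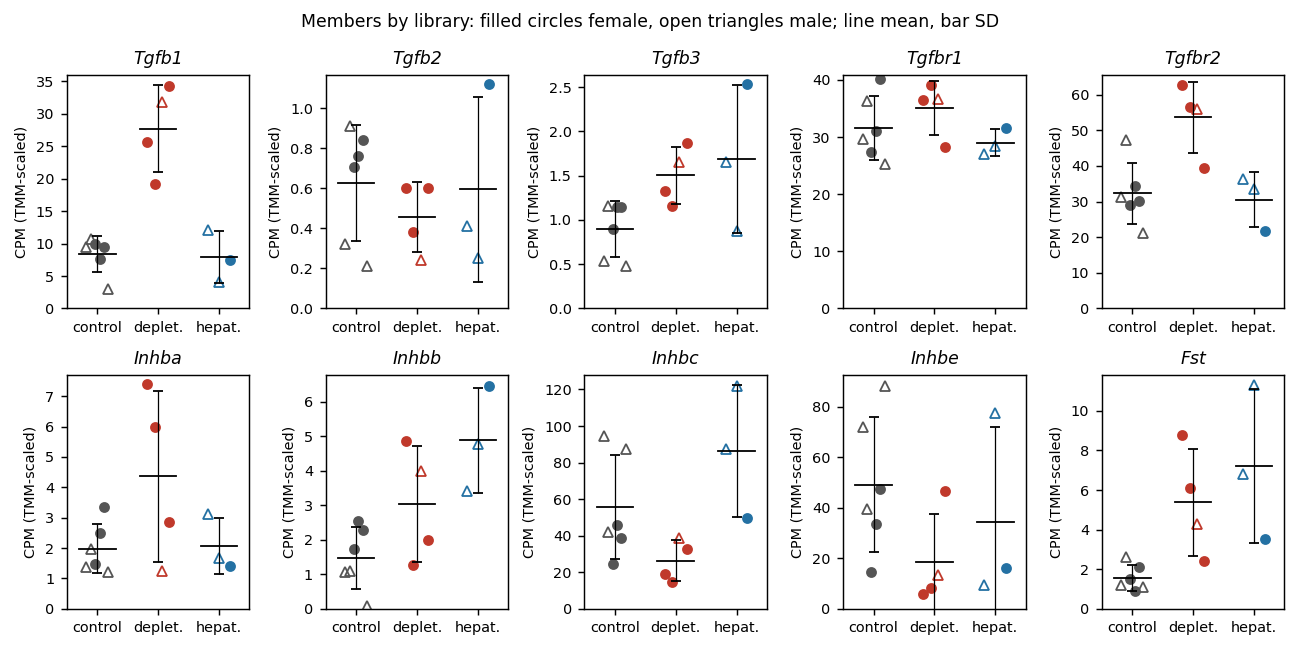
Each panel plots 1 gene's level in CPM (y axis, linear from 0) for the 6 control, 4 depleted and 3 hepatectomised livers, with filled circles for females, open triangles for males, a line for the group mean and a bar for the SD, cut off at 0. The 4 depleted livers lie above all others for Tgfb1, and the 3 hepatectomised livers lie above all controls for Fst and Inhbb.

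The first comparison asked how these genes differed when stellate cells were depleted. Of the 10 members, 3 rose (Tgfb1, Tgfbr2 and Fst) and 1 fell (Inhbc) at an adjusted p under 0.05 by edgeR's quasi-likelihood test. That is 40% of the members, where 33.9% of all genes tested were called (18.9% higher, 15% lower). The CPM ranges of 2 members, Tgfb1 and Tgfb3, lay wholly above the controls, where those of 28.4% of all genes were apart in either direction. The median log2FC of the 10 members was 0.74 (-1.04 to 1.86), against -0.03 over all genes. It was 0.13 after hepatectomy, against -0.02, and -0.26 between depleted and hepatectomised livers, against -0.05. In whole tissue, fewer cells of a type and less RNA per cell cannot be told apart.

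Among the ligands, Tgfb1 (chromosome 7, 25687002 to 25705077, GRCm38) ranged in controls from 3.03 CPM through a median of 9.51 to 10.7 CPM. The depleted livers had 25.6, 19.2, 31.8 and 34.3 CPM. The hepatectomised livers had 12.1, 4.13 and 7.41 CPM. Every depleted liver was above every control and every hepatectomised liver, and the lowest values in the other groups were those of control replicate 6 and hepatectomy replicate 2. With depletion Tgfb1 rose 3.31-fold (log2FC 1.73 ± 0.35 SE, edgeR adjusted p = 0.00221), with ranges apart as for 16.5% of all genes in this direction. The change was 1.44 without control replicate 6, depleted replicate 4 and hepatectomy replicate 2 (edgeR adjusted p = 6.64e-05), and it passed when each library was left out in turn. Sums of blood-cell markers were higher in the same livers, and their part in the result was not tested. Tgfb1 was highest in depleted replicate 4, then 3, 1 and 2. Kupffer, T cell and platelet sums had this order, while the monocyte and neutrophil sum was lowest in replicate 4. Only the Kupffer sum followed the order of Tgfb1 after hepatectomy, and none of these sums did so in controls. Kupffer markers summed to 85.7 to 665.3 CPM in controls, 1166 to 2492 CPM in depleted and 96.0 to 893.9 CPM in hepatectomised livers, and T cell markers to 2.02 to 3.35, 28.25 to 68.8 and 2.15 to 4.88 CPM. No Kupffer or T cell marker was at 0 in any library, but among the Kupffer markers Clec4f averaged 111.4 CPM in controls and 18.8 CPM in depleted livers and Vsig4 35.2 and 20.1 CPM, without passing. Monocyte and neutrophil markers summed to 2.88 to 10.7, 224.4 to 544.9 and 19.98 to 37.9 CPM, and platelet markers to 2.61 to 6.96, 6.68 to 25.5 and 3.59 to 6.58 CPM. Of these, Mpo, Elane, Ly6g, Camp, Gp9, Gp1ba and Gp1bb were at 0 in at least 1 library.

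Tgfb2 (chromosome 1, 186622792 to 186705989) and Tgfb3 (chromosome 12, 86056744 to 86079041), the less abundant isoforms, lay between 0.21 and 2.54 CPM over the 13 libraries. Tgfb2 rested on 7 to 45 reads per library and averaged 0.63 CPM in the 6 controls (SD 0.29) and 0.46 CPM in the 4 depleted livers (SD 0.18). Its log2FC of -0.75 ± 0.44 (SE) did not pass (edgeR adjusted p = 0.213). Tgfb3 was 0.895 ± 0.316 CPM in controls and 1.51 ± 0.32 CPM in depleted livers. Its depleted range began at 1.165 CPM, just above the highest control at 1.161 CPM, and its log2FC of 0.68 ± 0.34 (SE) did not pass (edgeR adjusted p = 0.144). Without depleted replicate 3 it was 0.38 (edgeR adjusted p = 0.567).

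Of the receptors, Tgfbr2 (chromosome 9, 116087698 to 116175363), which binds the ligand, ranged in controls from 21.3 CPM through a median of 30.7 to 47.3 CPM. The depleted livers had 62.7, 56.4, 55.9 and 39.5 CPM, so that only depleted replicate 4 lay within the control range. Tgfbr2 rose 1.73-fold (log2FC 0.79 ± 0.21 SE, edgeR adjusted p = 0.0106). The summed sinusoidal endothelial markers were 472.1, 465.9, 438.2 and 230 CPM in these livers, in the same order as Tgfbr2. None of the 8 markers was at 0 in any library. In controls the sums were 89.2 to 425.7 CPM and the orders differed, although replicate 6 was lowest for both. Control replicate 2, highest for Tgfbr2, had 349.5 CPM, and replicate 5, with the highest sum, had 30.1 CPM of Tgfbr2. After hepatectomy the sums were 280.8, 87.9 and 224.7 CPM, where Tgfbr2 was 36.3, 33.6 and 21.8 CPM. Depleted replicate 4, lowest for Tgfbr2, had the highest Kupffer and T cell sums. The part of these markers in the result was not tested. Tgfbr1 (chromosome 4, 47353222 to 47414931), the signalling partner, averaged 31.6 CPM in the 6 controls (SD 5.6) and 35.1 CPM in the 4 depleted livers (SD 4.7), for a log2FC of 0.13 ± 0.15 SE (edgeR adjusted p = 0.522). Its spread relative to the mean was the smallest of the 10 members in each group.

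**Figure D2:**
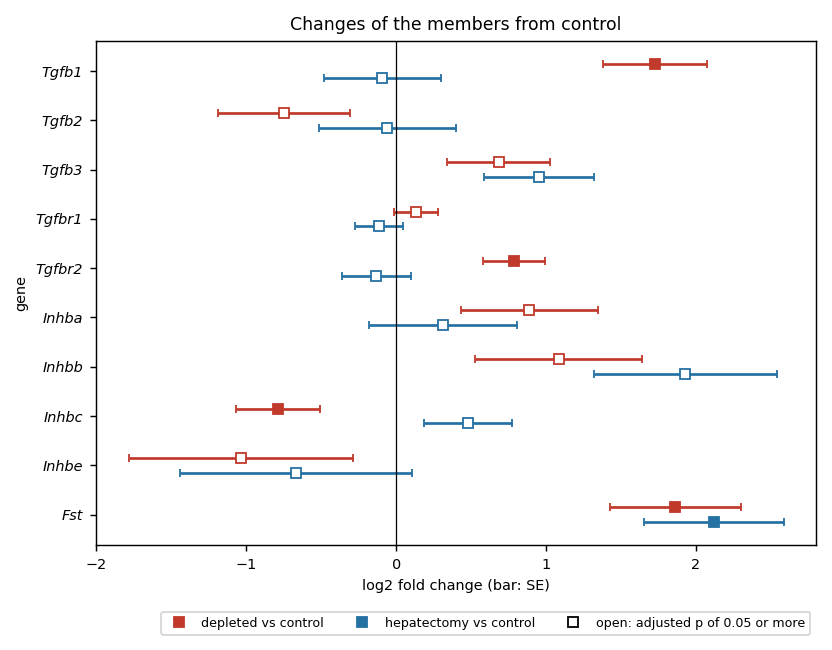
Log2FC values from control (x axis) of the 10 members (y axis), in red for depleted and in blue for hepatectomised livers, with bars for the SE and filled squares for an adjusted p under 0.05. Tgfb1, Tgfbr2, Inhbc and Fst are filled for depletion and only Fst for hepatectomy.

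The activin subunits split by level. Inhba (chromosome 13, 16011851 to 16027211), the subunit of activin A, ranged in controls from 1.20 CPM through a median of 1.73 to 3.35 CPM. In depleted livers it was 7.39, 5.98, 1.24 and 2.85 CPM, with 2 livers above all controls and the male, replicate 3, at the bottom of the control range. Its log2FC of 0.89 ± 0.46 (SE) did not pass (edgeR adjusted p = 0.155). Inhbb (chromosome 1, 119415465 to 119422248), the subunit of activin B, ranged in controls from 0.090 CPM, which is 3 reads in replicate 6, to 2.54 CPM. The 3 control females had 1.72 to 2.54 CPM and the 3 control males 0.090 to 1.09 CPM. In depleted livers it was 4.86, 1.28, 4.0 and 2.0 CPM, a log2FC of 1.08 ± 0.56 (SE) that did not pass (edgeR adjusted p = 0.155). It was 0.44 without replicate 3, the depleted male, and 0.32 in females alone (edgeR adjusted p = 0.674 and 0.71).

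Inhbc (chromosome 10, 127356328 to 127370544) was the one member called lower. It ranged in controls from 24.7 CPM through a median of 43.9 to 94.8 CPM, with 42.2 to 94.8 CPM in males and 24.7 to 45.6 CPM in females. The depleted livers had 18.9, 14.9, 38.7 and 32.6 CPM, 2 of them below all controls, and the 38.7 CPM belonged to the only male. With sex in the model the log2FC was -0.79 ± 0.28 (SE), or 1.73-fold lower (edgeR adjusted p = 0.0482). The call was lost with the replicate number as a block (-0.63, edgeR adjusted p = 0.0968), in females alone (-0.72, adjusted p = 0.184) and in 7 of 10 fits that each left out 1 library, where the adjusted p ran from 0.0103 to 0.173. Those 7 fits left out control replicates 1, 4, 5 and 6 and depleted replicates 1, 2 and 3, with log2FC values between -0.77 and -0.66.

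Inhbe (chromosome 10, 127349402 to 127351772) ranged in controls from 14.4 CPM through a median of 43.5 to 88.1 CPM. The depleted livers had 5.96, 8.11, 13.4 and 46.7 CPM, so that 3 livers lay below every control and replicate 4 within the control range. The log2FC of -1.04 ± 0.75 (SE) did not pass (edgeR adjusted p = 0.316), but without depleted replicate 4 it was -2.21 and passed (edgeR adjusted p = 0.0161). It also passed without that liver, control replicate 6 and hepatectomy replicate 2 together (-2.15, edgeR adjusted p = 0.00726). Over all fits that left out 1 library it ran from -2.21 to -0.59, the latter without depleted replicate 3 (edgeR adjusted p = 0.662). In females alone it was -0.66 (edgeR adjusted p = 0.619). Replicate 4 is also the depleted liver with the highest sum of stellate markers; the part of this in the result was not tested.

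The neighbouring subunits did not keep a fixed ratio. Per base of gene model, Inhbe was 0.54 to 1.13 times Inhbc in controls. In depleted livers the ratio was 0.291, 0.502, 0.320 and 1.32. In hepatectomised livers it was 0.099, 0.588 and 0.299, with 2 of the 3 below every control. The promoters printed above are those of this pair, and no measurement here bears on which factors bind them.

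**Figure D3:**
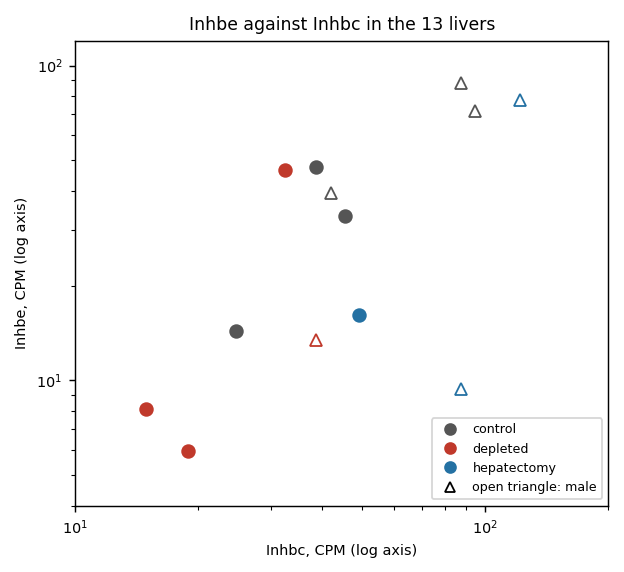
Each point is 1 liver, with Inhbc on the x axis and Inhbe on the y axis, both in CPM on log axes, coloured by group, with filled circles for females and open triangles for males. Depleted replicates 1 and 2 lie lowest for Inhbe, and hepatectomy replicate 1, at 87.5 CPM of Inhbc and 9.41 CPM of Inhbe, lies farthest below the controls of like Inhbc.

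Fst (chromosome 13, 114452262 to 114458730), the secreted antagonist of activins, ranged in controls from 0.876 CPM through a median of 1.33 to 2.62 CPM. The depleted livers had 8.76, 6.09, 4.26 and 2.41 CPM, 3 of them above all controls. It rose 3.63-fold (log2FC 1.86 ± 0.44 SE, edgeR adjusted p = 0.00536) and passed with each library left out. Per base of gene model, Fst was 0.30 to 1.12 times Inhba in controls and 0.72 to 2.91 times in depleted livers, with overlapping ranges. After hepatectomy it was 1.85 to 5.69 times Inhba, above all controls, and 1.00 to 4.32 times Inhbb, within the control range of 0.63 to 22.5. The 22.5 belonged to control replicate 6, with 3 reads of Inhbb, and the next highest control ratio was 4.39.

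The second comparison set the hepatectomised livers against the same controls, so its values share those samples with the first. Of the 10 members 1, Fst, was called (10%), where 8.42% of all genes tested were (6.06% higher, 2.36% lower). An unadjusted p under 0.05 was reached by 3 members, and DESeq2 called 2. With the replicate number as a block, 632 of all genes were called in place of 1164, and Fst kept its call. The ranges of 2 members, Fst and Inhbb, lay wholly above the controls, where those of 13.7% of all genes were apart (7.41% above, 6.24% below). Fst was 6.79, 11.3 and 3.54 CPM, each above the highest control at 2.62 CPM. It rose 4.35-fold (log2FC 2.12 ± 0.46 SE, edgeR adjusted p = 0.0157). Without hepatectomy replicate 2, the liver with the highest level and few Kupffer reads, the log2FC was 1.70 and did not pass (edgeR adjusted p = 0.0782), nor did it without that liver, control replicate 6 and depleted replicate 4 together (1.61, adjusted p = 0.0610). Of 6 markers of mesothelium and portal fibroblasts 5 also rose after hepatectomy, all but Thy1 (log2FC 0.34, edgeR adjusted p = 0.653). The sum of the 6 was 2.31 to 5.24 CPM in controls, with none at 0 in any library. In hepatectomised replicates 1 to 3 it was 16.1, 10.4 and 49.6 CPM, lowest in the liver with the highest Fst. In depleted replicates 1 to 4 it was 12.7, 13.5, 22.7 and 20.3 CPM, where Fst was 8.76, 6.09, 4.26 and 2.41 CPM. In depleted livers 1 of the 6 was called, Thy1, a gene that T cells also express, at 12.9 CPM on average against 0.79 CPM in controls, while Msln, Upk3b, Upk1b, Krt19 and Gpm6a had log2FC values from -0.18 to 0.90 that did not pass. After hepatectomy 5 of 9 tested monocyte and neutrophil genes and 2 of 5 cholangiocyte genes (Krt7 and Krt19, the latter also in the mesothelial list) rose too, with cholangiocyte sums of 49.1 to 93.0 CPM in controls and 87.0 to 95.4 CPM after hepatectomy. The part of these markers in the Fst results was not tested.

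Inhbb was 3.41, 4.77 and 6.46 CPM after hepatectomy, and every liver exceeded the highest control at 2.54 CPM. Its log2FC of 1.93 ± 0.61 (SE) missed the threshold (edgeR adjusted p = 0.0720), passed in DESeq2 (adjusted p = 0.0169) and lay between 1.61 and 2.06 with each library left out (edgeR adjusted p from 0.0499 to 0.190). It passed in edgeR without control replicate 6, which had 3 reads of Inhbb, and in a fit of the 2 groups alone (2.12, adjusted p = 0.0436). Tgfb3, at 1.65, 0.870 and 2.54 CPM, had a log2FC of 0.95 ± 0.37 (SE, edgeR adjusted p = 0.133). Inhba was 3.12, 1.68 and 1.42 CPM, within the control range, with 0.31 ± 0.49 (SE, edgeR adjusted p = 0.750).

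The remaining members after hepatectomy stayed short of the threshold, with the SE setting what could be seen. Tgfb1 had a log2FC of -0.09 ± 0.39 (SE), Tgfb2 of -0.06 ± 0.46, Tgfbr1 of -0.12 ± 0.16 and Tgfbr2 of -0.13 ± 0.23, with edgeR adjusted p-values from 0.705 to 0.956. Tgfb2, at 9 to 45 reads in these livers, had the largest SE of these. Inhbc was 87.5, 121.5 and 49.4 CPM, a log2FC of 0.48 ± 0.29 (SE, edgeR adjusted p = 0.341). Inhbe was 9.41, 77.7 and 16.1 CPM, with 1 liver in the upper control range and 1 below all controls, and its log2FC of -0.67 ± 0.77 (SE) did not pass (edgeR adjusted p = 0.643). Without hepatectomy replicate 2, the liver with 77.7 CPM, it was -1.85 (edgeR adjusted p = 0.304), and over all fits that left out 1 library it ran from -1.85 to -0.23.

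Depleted and hepatectomised livers were then compared directly, which tests whether their changes from the shared controls differed. Of the 10 members 3 were called (30%), where 23.4% of all genes tested were (13.3% higher, 10.1% lower in depleted livers). Tgfb1 was higher in depleted livers by 1.82 ± 0.45 (log2FC ± SE, edgeR adjusted p = 0.0122) and Tgfbr2 by 0.92 ± 0.26 (edgeR adjusted p = 0.0246), and the ranges of both were apart, as for 18.1% of all genes in this direction. Inhbc was lower (log2FC -1.27 ± 0.33 SE, edgeR adjusted p = 0.0168), with ranges apart as for 15.9% of all genes in this direction and 34.0% in either. The 7 hepatocyte markers, with the sums given above and none at 0, had log2FC values from -1.03 to -0.20 in the same comparison, of which edgeR called 0, DESeq2 called 1 and 3 had an unadjusted p under 0.05; their part in the Inhbc result was not tested. Fst and Inhbb did not differ detectably between these groups, at -0.26 ± 0.55 and -0.85 ± 0.66 (log2FC ± SE; edgeR adjusted p = 0.776 and 0.389), and Inhbb was at -1.67 without depleted replicate 3 (edgeR adjusted p = 0.189). Some of these calls were lost with 1 library fewer. Tgfb1 did not pass without depleted replicate 3 (log2FC 1.67, edgeR adjusted p = 0.0685) or hepatectomy replicate 3 (1.73, adjusted p = 0.0619). Inhbc did not pass without the same libraries (-1.18 and -1.33, edgeR adjusted p = 0.0815 and 0.0551) or with scaling by library size alone (-0.93, adjusted p = 0.0824). Tgfbr2 did not pass without depleted replicates 1 or 3 or hepatectomy replicates 2 or 3, with log2FC values from 0.67 to 0.99 and edgeR adjusted p-values from 0.0505 to 0.164.

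The other genes of the pathway were taken from lists chosen with earlier results of these data known, and a list's count is read only beside the share of all genes called. Proteins that hold TGF-beta latent or release it comprised 12 genes, of which 11 passed the filter. In depleted livers 2 rose and 2 fell (36.4% called, against 33.9% of all genes). Ltbp4, a latent TGF-beta binding protein of the matrix, fell from a mean of 44.5 CPM (SD 16.8) to 2.20 CPM (SD 1.20), with a log2FC of -4.63 ± 0.51 SE and an edgeR adjusted p of 4e-05. Ltbp1, of the same family, changed by -1.70 ± 0.48 (SE, edgeR adjusted p = 0.0159). Nrros, which anchors latent TGF-beta on macrophages and microglia, rose from 4.13 ± 1.23 to 22.8 ± 3.6 CPM, by 2.44 ± 0.26 (SE, edgeR adjusted p = 2.62e-05). Thbs1, thrombospondin 1, an activator of latent TGF-beta, rose by 1.97 ± 0.70 (SE, edgeR adjusted p = 0.0462). In the same livers all 12 stellate markers fell, 6 of 9 Kupffer markers rose, and all 9 tested monocyte and neutrophil genes rose, with list sums of 2.88 to 10.7 CPM in controls and 224.4 to 544.9 CPM in depleted livers for the last. The part of any of these in the results was not tested. After hepatectomy none of the 11 was called by edgeR (against 8.42% of all genes), 3 had an unadjusted p under 0.05 and DESeq2 called 1. Thbs1 came closest, with 2.42 ± 0.70 (SE, edgeR adjusted p = 0.0521), and Ltbp4 had -1.12 ± 0.45 (SE, edgeR adjusted p = 0.15).

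Of 8 further receptors and co-receptors 7 passed the filter, and in depleted livers 1 rose and 1 fell (28.6%, against 33.9% of all genes). Acvrl1, the type I receptor ALK1, known from endothelium, rose from 2.97 ± 1.19 to 20.2 ± 4.1 CPM, by 2.72 ± 0.34 (log2FC ± SE, edgeR adjusted p = 7.95e-05). Of 8 sinusoidal endothelial markers 1 was called higher there, and their summed level was 89.2 to 425.7 CPM in controls and 230 to 472.1 CPM in depleted livers. Acvr2a, an activin type II receptor, fell (log2FC -0.57 ± 0.16 SE, edgeR adjusted p = 0.0142). After hepatectomy 0 of the 7 were called by edgeR or by DESeq2, and 0 had an unadjusted p under 0.05. The nearest to it were Tgfbr3, the co-receptor betaglycan, at -0.54 ± 0.30 (SE, edgeR adjusted p = 0.282), and Acvr2a at -0.28 ± 0.17 (SE, edgeR adjusted p = 0.337).

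All 13 SMAD transducers and nuclear regulators were tested. In depleted livers 1 rose and 3 fell (30.8%, against 33.9% of all genes). Skil, a SMAD corepressor that TGF-beta itself induces, rose from 10.5 ± 2.6 to 23.3 ± 9.6 CPM, by 1.152 ± 0.268 (log2FC ± SE, edgeR adjusted p = 0.00519). Smad4, the common partner, fell by 0.46 on the log2 scale, Smurf2, a ubiquitin ligase of the pathway, by 0.44 and Smad3 by 0.34, at adjusted p-values of 0.0231, 0.0407 and 0.0207 in edgeR. After hepatectomy 5 had an unadjusted p under 0.05, DESeq2 called 1 higher and 3 lower, and in edgeR 2 fell (15.4%, against 8.42% of all genes): Smurf1 with -0.60 ± 0.14 and Smad3 with -0.45 ± 0.11 (log2FC ± SE, edgeR adjusted p = 0.0215 and 0.0261). Smad3 was 14.8 to 18.3 CPM in controls and 11.9 to 13.02 CPM after hepatectomy.

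Of 7 other secreted or membrane binders and antagonists 6 passed the filter, and in depleted livers 5 fell and 1 rose (83.3% lower and 16.7% higher, against 15% and 18.9% of all genes). Dcn, the proteoglycan decorin, which binds TGF-beta, fell from 197.6 ± 54.1 to 6.79 ± 10.95 CPM, by a log2FC of -5.33 ± 0.97 (SE, edgeR adjusted p = 0.00118). Fmod (fibromodulin) changed by -3.83 ± 0.52 and Fstl1, a follistatin-like secreted protein, by -1.997 ± 0.514 (SE; edgeR adjusted p = 1.46e-04 and 0.00971). Fstl3, a relative of follistatin that also binds activins, was the one that rose. It went from 0.094 to 0.222 CPM in controls to 0.279 to 6.18 CPM in depleted livers, by 3.57 ± 0.60 (SE, edgeR adjusted p = 6.31e-04). Its depleted mean was 2.04 CPM with an SD of 2.80, and its lowest control lay just above the level of 3 counts. The lowest depleted value of Fmod, 0.052 CPM, lay under that level, so the size of both changes is uncertain. Bgn (biglycan) and Bambi, a decoy receptor, were the other two that fell. Stellate cells are known to express decorin, and all 12 stellate markers fell in the same livers; the part of this in the result was not tested. After hepatectomy 0 of the 6 were called by edgeR or DESeq2 and 0 had an unadjusted p under 0.05; Fstl1 was at 0.93 ± 0.48 (SE, edgeR adjusted p = 0.255) and Fstl3 at 1.27 ± 0.68 (SE, edgeR adjusted p = 0.272).

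Of 8 further ligands of the activin and nodal branch, 7 were matched in the table and 3 passed the filter. Gdf11, an activin-like ligand, rose in depleted livers from 0.127 ± 0.115 to 0.822 ± 0.188 CPM, by 2.67 ± 0.49 (log2FC ± SE, edgeR adjusted p = 0.00114). Its lowest control, at 0.030 CPM, lay under the level of 3 counts, so the size of this change is uncertain. Mstn (myostatin) and Lefty2 had 0 counts in all 13 libraries. The 1 call among 3 genes is 33.3%, against 33.9% of all genes. After hepatectomy none of the 3 was called by edgeR or DESeq2, where edgeR called 8.42% of all genes, and 1 had an unadjusted p under 0.05, Lefty1, a nodal antagonist, at -1.34 ± 0.53 (log2FC ± SE, edgeR adjusted p = 0.14).

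**Figure D4:**
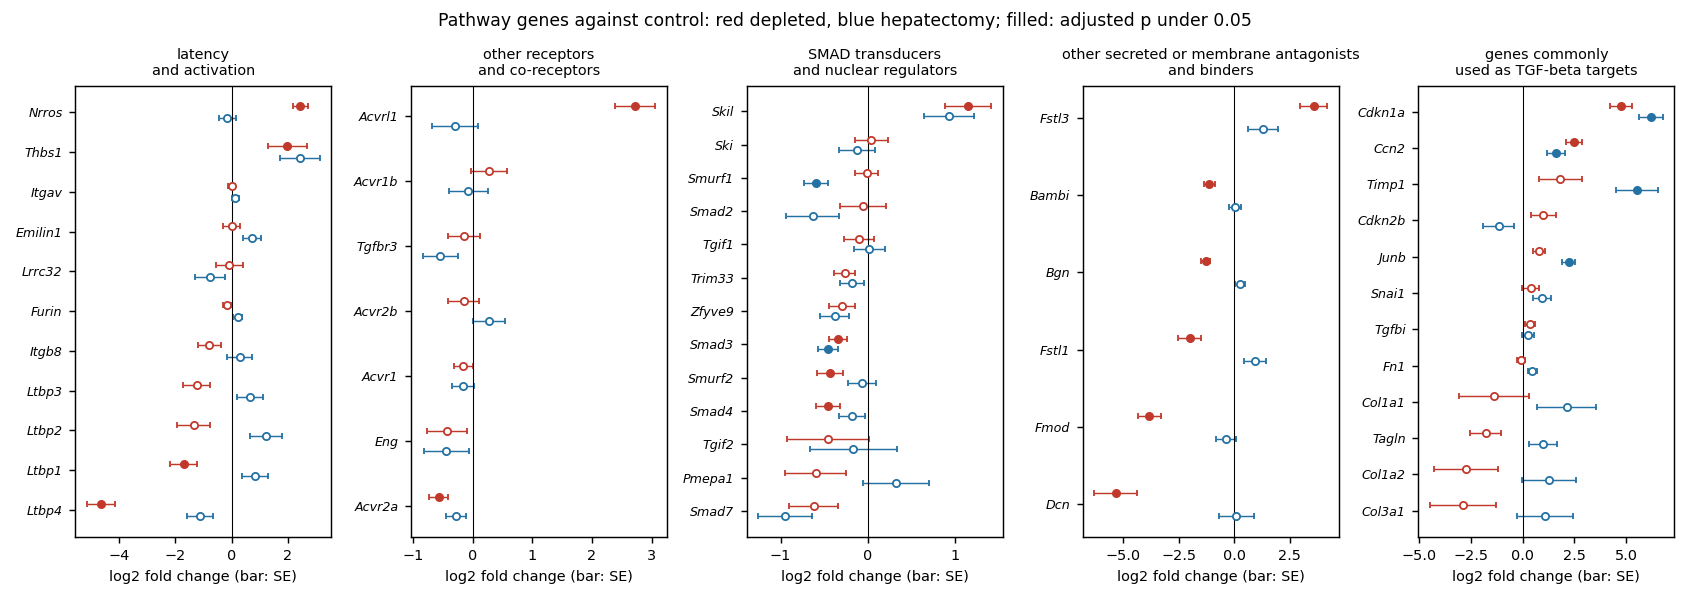
Log2FC values from control (x axis) of the tested genes of 5 pathway lists (y axis), in red for depleted and in blue for hepatectomised livers, with bars for the SE and filled circles for an adjusted p under 0.05. Ltbp4, Dcn and Fmod lie far to the left for depletion, and Nrros, Acvrl1 and Fstl3 far to the right.

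Genes commonly read as TGF-beta targets had log2FC values of both signs in depleted livers, with a median of 0.37 against -0.03 over all genes. After hepatectomy only Cdkn2b was negative (-1.14, edgeR adjusted p = 0.368), and the median was 1.17 against -0.02. All 12 were tested, and in depleted livers 2 rose and none fell (16.7% higher, against 18.9% of all genes), where DESeq2 called 3. Cdkn1a, the cell-cycle inhibitor p21, rose by 4.74 ± 0.53 and Ccn2, connective tissue growth factor, by 2.47 ± 0.40 (log2FC ± SE). In edgeR their adjusted p-values were 4.75e-05 and 5.11e-04. The collagen genes of the list were not called, with log2FC values of -1.39 for Col1a1, -2.73 for Col1a2 and -2.87 for Col3a1 (edgeR adjusted p = 0.566, 0.195 and 0.185). For each of them a single depleted liver held nearly all of the level, and the other depleted livers lay below every control. In depleted livers Col1a1 averaged 6.11 CPM with a highest value of 24.3 CPM, Col1a2 5.26 and 20.9 CPM, and Col3a1 12.6 and 49.8 CPM. Their lowest depleted values were 0.0175, 0 and 0.0873 CPM, against lowest controls of 4.98, 10.6 and 23.5 CPM. The highest controls were at 32.4, 45.0 and 115.9 CPM. After hepatectomy 4 rose and none fell (33.3% higher, against 6.06% of all genes), where DESeq2 called 3. Cdkn1a rose by 6.17 ± 0.57, Timp1, a metalloproteinase inhibitor, by 5.49 ± 1.01, Junb, an AP-1 subunit, by 2.23 ± 0.31 and Ccn2 by 1.61 ± 0.43 (log2FC ± SE). In edgeR their adjusted p-values were 1.30e-04, 0.00812, 0.00204 and 0.0391. Timp1 was at 0 in 1 control and at most 0.667 CPM in the others, so the size of its change is uncertain. These genes answer to other signals too, and both comparisons share their controls.

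The genes most like each called member were found by the root mean square difference of log2 CPM over the 13 libraries, after each gene's own mean was removed. For Tgfb1 these were Cxcl16 and Scd2, at 0.18 and 0.22 log2 units. For Tgfbr2 they were Galc and Kif3b (0.21 and 0.22), for Inhbc Grhpr and Rnaseh2c (0.36 and 0.36), and for Fst Prg4 and Sema6b (0.44 and 0.54). Prg4 had log2FC values of 1.78 in depleted and 2.29 in hepatectomised livers, beside 1.86 and 2.12 for Fst. It was picked for its closeness to Fst over the same libraries, so like changes follow from the choice.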

How the data were processed

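RNA of 13 whole livers was sequenced from stranded mRNA libraries, per the labels' protocols. The authors deposited raw read counts per gene; per the submitters' processing notes the tools were STAR 2.7.1a, SAMtools 1.15.1 and featureCounts 1.6.4 on mm10. Strand and multi-mapping settings are not given in the sources used here; no member shared exon bases with another gene of the table. Symbols matched 21741 of 22048 IDs in GENCODE M21, and 99.94% of these overlapped the same gene there. Counts were tested with edgeR 4.0.16 (R 4.3.3): filterByExpr, TMM scaling, robust quasi-likelihood F-test, group and sex over all 13 libraries, two-sided, Benjamini-Hochberg over 13831 genes, threshold 0.05. The SE is the absolute log2 fold change divided by the square root of F. TMM-scaled library sizes underlie CPM, except that the level of 3 counts uses raw totals and covers counting error only. The test was tried on simulated counts. DESeq2 1.42.0 and other settings were alternatives.

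The members, lists and rules were chosen with earlier results of these data known. Named are all members, up to 4 called genes per list and comparison (up to 2 of lowest p where none was called), and the 2 genes most like each called member; Bgn, Bambi, Mstn, Lefty2, the collagens and the single cell type markers were added after their values were seen. One gene of the target list is not reported here and is left out of its counts. Each group holds both sexes and so more than a single animal, but the labels do not say that every sample came from its own animal. The p-values therefore measure only the spread between these samples, part of which may be technical. Median per-gene chi-square of library pairs was at least 4.6 in each group, so none was treated as a duplicate. Replicate numbers 1 to 3 occur in all groups. Deviations from group means of same-numbered hepatectomised and control libraries correlated across genes at 0.107 to 0.523, but these pairs share their sex; with sex removed r was -0.191 to 0.084. For depleted and control pairs r was -0.098 to 0.416 with sex removed (mean 0.116, against -0.018 for pairs of unlike number). For depleted and hepatectomised pairs it was 0.041 to 0.272 (mean 0.158, against -0.052). Depleted replicates 1 to 3 differ in sex from their same-numbered partners and so are other animals. The numbers were not taken to pair the samples, but these values do not decide whether libraries of the same number share a batch.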

Additional observations from a re-analysis of the deposited data

How the results depend on the processing

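Of the calls among members, those of Tgfb1, Tgfbr2 and Fst for depletion held under every alternative run. Counts of called genes moved by over 1.5 times as follows, against 4692 for depletion (2614 higher), 1164 for hepatectomy (838 higher) and 3236 for their direct comparison (1837 higher). For depletion, females alone gave 2695, and without depleted replicate 3 there were 2960, the lowest of 2960 to 4817 with each library left out. The count with library size alone stayed within 1.5 times, but its split was 2884 higher and 1471 lower. For hepatectomy, the replicate block gave 632, library size alone 2192 (626 higher and 1566 lower, with the median over all genes at -0.24 on the log2 scale), DESeq2 1939, males alone 613, the fit without control replicate 6, depleted replicate 4 and hepatectomy replicate 2 (chosen after seeing the data) 751, and leaving out each library 483 to 1331. For the direct comparison, a fit of the 2 groups gave 2105 and leaving out each library 1709 to 3850; library size alone put its median at 0.27, with 3102 genes higher and 610 lower. The lowest of the direct comparison came without depleted replicate 3 (1709) and of hepatectomy without hepatectomy replicate 2 (483), and those for hepatectomy without control replicates 1 and 2 were 692 and 742. Inhbc for depletion also missed the threshold with library size alone (-0.67), without the sex term (-1.08) and with the 2 groups alone (-0.80), and Tgfbr1 passed in the direct comparison with library size alone (0.56). The block changed no call of a member other than Inhbc for depletion.

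Uncalled members changed sign as follows (log2 fold changes). After hepatectomy, males alone gave Tgfb1 0.058 and Tgfbr2 0.063, the fit without the 3 libraries gave Tgfb2 0.076, and leaving out each library gave Tgfb1 -0.56 to 0.20, Tgfb2 -0.47 to 0.39, Tgfbr2 -0.28 to 0.082 and Inhba -0.23 to 0.87. Between depleted and hepatectomised livers, library size alone gave Tgfb3 0.0765 and Fst 0.033, the fit without the 3 libraries gave Fst 0.37, and leaving out each library gave Tgfb3 -0.60 to 0.047, Inhba -0.14 to 1.17, Inhbe -1.47 to 0.60 and Fst -0.80 to 0.12. The cause of these shifts was not tested. The lowest read number behind a member was 3, for Inhbb in control replicate 6.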
